A study of Mus musculus with 58 samples.

Results

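Mouse embryonic stem (mES) cells that had lost DPY30 for 24 h were compared with the same cells before its loss, in all of the 3′-end mRNA reads of their libraries. The comparison takes 6 of the 58 libraries of the series, chosen by their labels and by no measured value: 3 SLAM-seq libraries of the DPY30mAID line after 24 h of auxin and 3 of that line at 0 h. Every read was counted, whether or not it carried a T>C conversion, so the values describe the RNA that the cells held and not only the RNA made in the last hour. The line is a clone of E14 mES cells, of the 129/Ola background, grown on gelatin in serum with LIF. Both copies of Dpy30 carry a mini auxin-inducible degron (mAID) followed by a BFP reporter at the C terminus, and the cells also express OsTIR1, the plant ubiquitin ligase subunit that auxin directs to the degron. All 6 libraries, the 0 h controls included, came from cells with both transgenes that had been given 100 µM 4SU for 60 min. No library here comes from untagged cells treated with auxin, so the loss of DPY30 and other effects of the ligand cannot be told apart within this line. A pair of other lines served as comparison, each with its own 0 h libraries: RBBP5FKBP cells, in which dTAG-13 removes RBBP5 (3 libraries at 0 h and 3 at 24 h), and DPY30mAID_Kdm5dKO cells, which carry the same Dpy30 degron and lack Kdm5a and Kdm5b (2 libraries at 0 h and 2 at 24 h of auxin).

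DPY30 is a small shared subunit of the SET1/COMPASS complexes, the enzymes that methylate lysine 4 of histone H3 (H3K4). The catalytic subunits are SETD1A, SETD1B and the MLL family proteins encoded by the Kmt2 genes, and they need a core of WDR5, RBBP5, ASH2L and DPY30. H3K4me3 marks the promoters of active genes and is removed by KDM5 demethylases, whereas H3K4me1 marks enhancers. An auxin degron removes the protein and leaves the gene in place, so the Dpy30 mRNA does not report on how complete the depletion was. The level of a long-lived mRNA follows its synthesis with a delay, and a 24 h interval lets part of the older RNA decay.

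The 3 libraries at 0 h held 2048085 to 2806821 reads in 3′ intervals of genes, and those at 24 h held 2062069 to 2492794. These reads were 43.4% to 44.5% of all reads of the library at 0 h and 36.6% to 40.0% at 24 h, and the 2 ranges do not overlap. The share of counted reads that mapped to more than 1 place was 22.8% to 23.3% at 0 h and 24.9% to 25.9% at 24 h. T>C reads were 15.3% to 16.1% of the reads at 0 h and 14.5% to 15.8% at 24 h. The part that the first of these differences plays in the results was not tested. For the second, results with such reads subtracted are given below with the genes and lists concerned. The values are relative to the library, because no spike-in is among the counted intervals. In bulk samples of this kind, fewer cells of a type and less RNA per cell cannot be told apart.

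The identity of the cells was checked against defining markers. All 8 ES cell markers passed the filter on low counts. Their summed level in CPM, the counts of a gene scaled to the same TMM-normalized total of counted reads in each library, was 8979 to 9898 CPM at 0 h and 7651 to 8464 CPM at 24 h. Markers of other cell types were at much lower levels. The 6 primitive endoderm genes summed to 3.33 to 16.0 CPM at 0 h and 4.81 to 15.1 CPM at 24 h, with Sox17 at 0 in all 6 libraries. The 5 trophectoderm genes summed to 1.85 to 10.0 CPM and 0.838 to 4.48 CPM, with Elf5 at 0 throughout. The 6 fibroblast genes, which would mark feeder cells, summed to at most 1.502 CPM at 0 h and to 0 at 24 h, and Col3a1, Dcn, Lum and Postn were at 0 in each library. The 5 mesoderm genes summed to 17.4 to 25.5 CPM at 0 h and 3.21 to 5.03 CPM at 24 h, most of it Eomes. The 5 neural genes summed to 45.5 to 54.6 CPM at 0 h and 18.9 to 26.0 CPM at 24 h, most of it Sox1 at 0 h and Sox1 with Pax6 at 24 h, with Dcx at 0 in all libraries.

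After 24 h without DPY30, mRNA levels relative to the library had changed at close to equal numbers of genes in both directions. Scaling each library to its own total centres the changes, so this balance does not show whether mRNA per cell changed. Of 9848 genes tested, 1679 (17.0%) were lower and 1570 (15.9%) were higher at an adjusted p under 0.05 in edgeR's quasi-likelihood test with Benjamini-Hochberg adjustment. The levels of 694 genes (7.05%) fell more than 2-fold, and those of 607 genes (6.16%) rose more than 2-fold. Changes beyond 4-fold were seen at 133 genes in the lower direction and at 159 in the higher direction. Of the 8550 genes that averaged 10 reads or more at both times, 17.9% were lower and 16.3% were higher, and list counts over such members are set against these shares. The median log2 fold change of all tested genes was 0.01, with quartiles at -0.49 and 0.50. Among the genes that changed more than 2-fold, the 3 values at 24 h did not overlap the 3 at 0 h in 657 of the lower and 574 of the higher genes. Of all tested genes, 43.4% had no overlap. Of the genes past 2-fold, 91 had more than 20% of their reads at more than 1 place in the genome, and reads of such genes can belong to a copy.

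**Figure D1:**
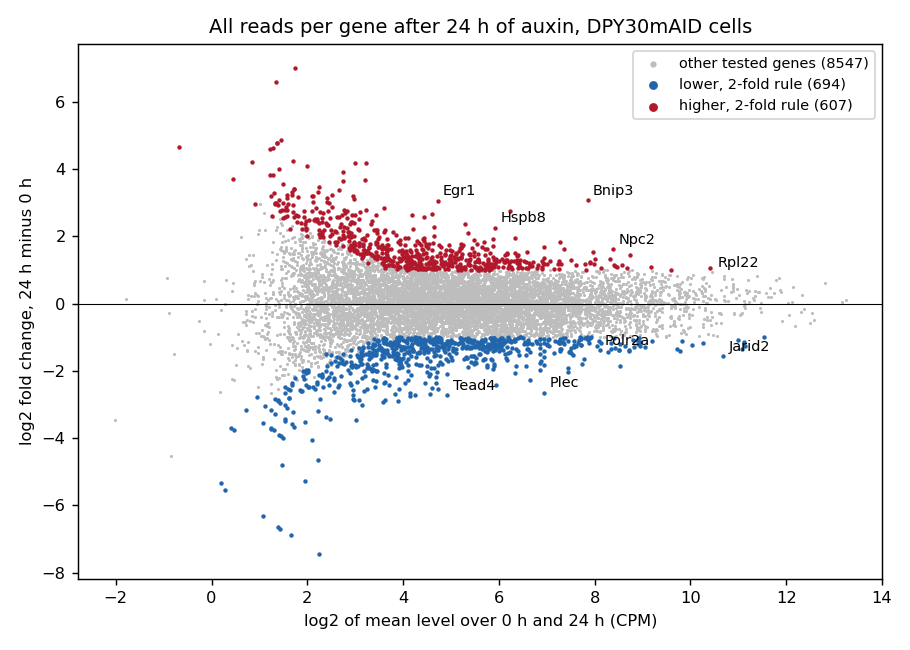
The plot of change against level shows each tested gene by the log2 of its mean CPM over 0 h and 24 h (x axis) and its log2 fold change, 24 h minus 0 h (y axis), with blue for the 694 genes lower and red for the 607 genes higher by more than 2-fold at an adjusted p under 0.05. Coloured points lie on both sides of 0 over most of the range of levels, with the widest fold changes among genes of low level, and Jarid2 stands among the most counted of the lower genes.

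The 12 lowest log2 fold changes are given for genes with separate groups, a mean of at least 50 reads in either group and at most 20% of reads at more than 1 place. Genes with fewer reads had lower values, down to -7.46. Plec (ENSMUSG00000022565, chr15:76170974-76232574, minus strand, GRCm38), which encodes the cytoskeletal linker plectin, was at 264, 176 and 198 CPM in the 3 libraries at 0 h and at 30.5, 34.3 and 36.5 CPM at 24 h. Tead4 (ENSMUSG00000030353, chr6:128224288-128300823, minus strand), a DNA-binding partner of YAP, was at 54.1, 57.0 and 46.7 CPM at 0 h and at 8.42, 6.47 and 8.80 CPM at 24 h. In both genes every 24 h library lay below every 0 h library by several times the spread between libraries, with log2 fold changes of -2.65 ± 0.17 (SE, adjusted p = 7.38e-18) for Plec and -2.72 ± 0.29 (adjusted p = 8.4e-11) for Tead4. Slc29a2, an equilibrative nucleoside transporter, had the lowest fold change of these 12, from 26.3 ± 3.35 CPM (SD, n = 3) to 3.52 ± 1.96 CPM, or -2.89 ± 0.46 (SE) on the log2 scale. Others of the 12 lowest were Rnd1, a small GTPase, at -2.86, Nr1d1, the clock repressor REV-ERBα, at -2.71, and Znrf3, a ubiquitin ligase that removes Wnt receptors, at -2.76. Pcsk6, a proprotein convertase that can process Nodal, fell by 2.53 on the log2 scale. The other members of the 12 were Samd5, Exoc3l, Ppp2r2c, Shisa8 and Tlcd1, between -2.70 and -2.52. Znrf3 varied more at 24 h than at 0 h, with 3.21, 10.4 and 0.419 CPM against 30.5, 30.4 and 31.1 CPM.

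Among abundant mRNAs the lower genes included those of chromatin and RNA-binding proteins. Jarid2 (ENSMUSG00000038518, chr13:44729474-44921643, plus strand), an accessory subunit of Polycomb repressive complex 2, was at 2381, 2506 and 2506 CPM at 0 h and at 811, 872 and 816 CPM at 24 h, a log2 fold change of -1.56 ± 0.08 (SE, adjusted p = 3.16e-21). The fall was many times the spread between libraries in either group. Mat2a, which makes the methyl donor S-adenosylmethionine, went from 3159 ± 201 CPM (SD, n = 3) to 1321 ± 62.3 CPM. Ncl, the nucleolar protein nucleolin, and Trim28, the co-repressor of zinc finger proteins at retroelements, fell by 1.16 and 1.07 on the log2 scale. These 4 were among the 5 most counted of the lower genes that the rule admitted.

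The 12 highest log2 fold changes were taken with the same limits, and genes outside them, such as Bnip3, reached higher values. Egr1, an immediate early zinc finger factor, was at 7.01, 5.55 and 4.45 CPM at 0 h and at 56.1, 37.3 and 47.8 CPM at 24 h, a log2 fold change of 3.06 ± 0.42 (SE, adjusted p = 7.93e-08). Hspb8 (ENSMUSG00000041548, chr5:116408491-116422864, minus strand), a small heat shock protein, was at 23.0, 19.2 and 20.7 CPM at 0 h and at 101, 100 and 99.3 CPM at 24 h, a log2 fold change of 2.25 ± 0.24 (adjusted p = 5.69e-11). Both were several times higher in each 24 h library than in any 0 h library. Mgat4c, a glycosyltransferase gene, and Fcho2, an endocytic adaptor, rose from 6.49 ± 2.04 to 41.8 ± 9.68 CPM and from 15.4 ± 3.65 to 66.6 ± 14.3 CPM (SD, n = 3). Pcbd2, Commd3, Bbs9, Narf and Mup6 were the others of this kind, with log2 fold changes between 2.01 and 2.63. Mup6 belongs to a family of near-identical genes, and 0.787% of the reads counted for it were multimapped. The remaining 3 of the 12 highest were P4ha2, Ndrg1 and Neu1, described with their groups. The most counted of the genes that rose were Atp5f1, a subunit of ATP synthase, Rps27l, a paralogue of ribosomal protein S27, Glrx3, Slc25a36 and Tuba1a, with 24 h means between 479 and 1039 CPM and log2 fold changes between 1.01 and 1.14.

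**Figure D2:**
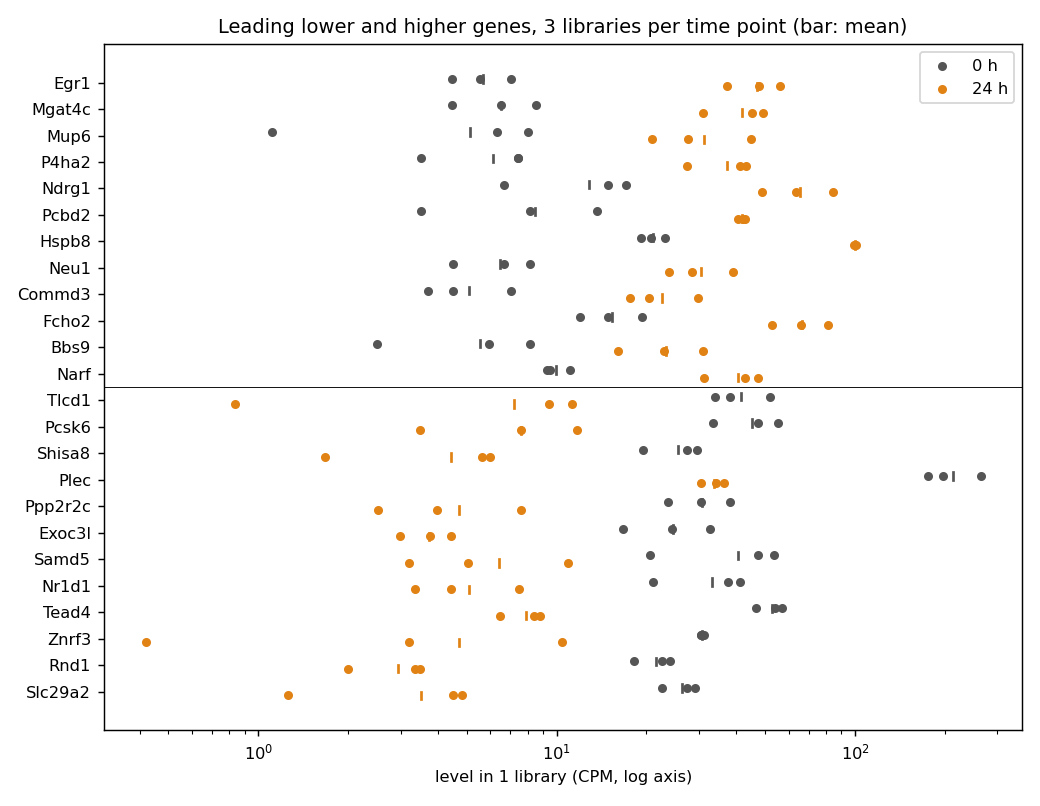
The plot of the 24 leading genes gives the CPM of each library (x axis, log scale) for the 12 highest log2 fold changes above the line and the 12 lowest below it, with grey points for 0 h, orange points for 24 h and a short bar at each mean of 3. In each of the 24 genes the points at 24 h lie to one side of those at 0 h, which the rule for these genes required.

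Hypoxia-responsive genes moved in both directions. These genes are induced when the HIF factors are stable, and they cover glycolysis, mitophagy and collagen hydroxylation. HIF binds a short element with the core ACGTG or GCGTG, and GCGTG is also the core bound by the aryl hydrocarbon receptor. Of 26 members tested, 11 rose and 4 fell, against 15.9% and 17.0% of all tested genes, and the median log2 fold change was 0.02. Bnip3 (ENSMUSG00000078566, chr7:138890836-138909519, minus strand), a mitophagy receptor, was at 43.5, 57.8 and 44.8 CPM at 0 h and at 393, 407 and 440 CPM at 24 h, a log2 fold change of 3.08 ± 0.15 (SE, adjusted p = 2.87e-23). P4ha2 (ENSMUSG00000018906, chr11:54100095-54131665, plus strand), a collagen prolyl hydroxylase, was at 3.50, 7.40 and 7.41 CPM at 0 h and at 41.3, 27.4 and 43.2 CPM at 24 h, a log2 fold change of 2.58 ± 0.40 (adjusted p = 9.05e-07). The promoters of these 2 genes, the members with the largest rises that the RefSeq promoter table holds, are shown because both carry matches to these cores. Each sequence runs 5′ to 3′ on the strand of the gene from 250 bases before the RefSeq start to 50 after it in build GRCm38.p6, Bnip3 at chr7:138909457-138909756 (minus strand) and P4ha2 at chr11:54100674-54100973 (plus strand). Capitals mark ACGTG and GCGTG on either strand.
Bnip3: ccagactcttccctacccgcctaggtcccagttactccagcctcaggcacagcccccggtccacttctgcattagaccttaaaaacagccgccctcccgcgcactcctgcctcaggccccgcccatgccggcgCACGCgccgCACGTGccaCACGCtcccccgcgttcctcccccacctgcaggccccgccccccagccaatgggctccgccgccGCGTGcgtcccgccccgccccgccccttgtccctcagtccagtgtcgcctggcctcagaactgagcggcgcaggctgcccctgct
P4ha2: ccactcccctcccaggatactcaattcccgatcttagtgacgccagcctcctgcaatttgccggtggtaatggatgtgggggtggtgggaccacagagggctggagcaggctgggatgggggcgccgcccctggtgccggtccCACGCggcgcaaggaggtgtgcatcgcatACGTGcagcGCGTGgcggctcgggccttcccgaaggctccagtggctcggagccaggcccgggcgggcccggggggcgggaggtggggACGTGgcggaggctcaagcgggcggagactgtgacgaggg

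The Bnip3 window holds ACGTG 2 times and GCGTG 3 times, counting both strands, and its 2 ACGTG matches overlap in the palindrome of 6 letters. The P4ha2 window holds each of the 2 motifs 2 times. The RefSeq start used for P4ha2 lies 829 bases from the start in the gene annotation. ACGTG was present in 16 of the 24 promoters matched for the tested hypoxia genes (66.7%), in 27.2% of the promoters matched for all tested genes and in 19.6% of all 32851 promoters of that table. GCGTG was present in 62.5%, 54.8% and 32.4% of the same 3 sets. Among the 495 genes that rose more than 2-fold and had a matched promoter (81.6% of 607), 24.7% had ACGTG, a share no higher than that of all tested genes. A match to 5 letters is a description of the window and not of a binding site.

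Ndrg1, a stress-responsive gene induced in hypoxia, was at 17.0, 14.8 and 6.67 CPM at 0 h and at 84.6, 63.2 and 48.6 CPM at 24 h, a log2 fold change of 2.37 ± 0.31 (SE, adjusted p = 1.6e-08). Aldoc, a glycolytic aldolase, rose by 1.62, Ddit4, an inhibitor of mTORC1, by 0.60 and Pdk1, which restrains pyruvate entry into mitochondria, by 0.46 on the log2 scale. The members that fell included Pfkfb3, which makes the activator of phosphofructokinase, at -1.68, the lactate transporter gene Slc16a3 at -0.86 and the hexokinase gene Hk2 at -0.85. Slc2a1, a glucose transporter gene and classical HIF target, had a log2 fold change of -0.22 (adjusted p = 0.107) and did not pass. Several of the rises rest on reads that mapped to more than 1 place, which made up 99.7% of the reads of Pgk1, 94.3% of those of Higd1a, 76.6% of those of Bnip3l and 58.2% of those of Ero1l. With such reads subtracted, a choice made after the data were seen, the calls of Pgk1 (1.44), Higd1a (0.59) and Ero1l (0.13) were lost. The share was 22.6% for Bnip3, over the 20% that the rule for leading genes allowed, and under 1% for P4ha2, Ndrg1 and Aldoc.

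Indole compounds, the class to which the natural auxin belongs, can act on the aryl hydrocarbon receptor, and its targets were therefore read in these cells. Of 10 genes listed, 4 had enough reads to be tested. Of these, Aldh3a1 and Cyp1b1 reached the minimum of 10 reads only at 24 h, where they were high, so that no count is read from the list, and 15.9% of all tested genes rose. Nqo1, a quinone reductase, was at 60.6, 63.3 and 69.6 CPM at 0 h and at 113, 114 and 118 CPM at 24 h, a log2 fold change of 0.83 ± 0.19 (SE, adjusted p = 0.000636). Tiparp, a repressor of the receptor, rose from 117 ± 11.8 to 186 ± 29.8 CPM (SD, n = 3), or by 0.67 ± 0.15 (SE). Nqo1 and Tiparp had separate groups, and they carry nearly all reads of the list. Aldh3a1 was counted with 3 reads in the 3 libraries at 0 h and 36 at 24 h, a ratio of 13 with a 95% counting interval of 4.11 to 66.0. Cyp1b1, a cytochrome P450 of the classical response, was at 2.00, 0.37 and 0 CPM at 0 h and at 2.00, 3.48 and 11.7 CPM at 24 h, and most of its rise came from 1 library. The calls of the last 2 genes were lost when single 0 h libraries were left out: without 0 h replicate 3 the log2 fold change was 2.99 for Aldh3a1 and 2.31 for Cyp1b1. The Cyp1b1 call was also lost without 0 h replicate 2 (2.60), without the filter on low counts and with the replicate number as a block. In RBBP5FKBP cells, which received no auxin, none of the 3 members tested passed in edgeR's test, and Nqo1 and Tiparp were at -0.18 and 0.27. In the auxin-treated Kdm5dKO cells Nqo1 was at 0.50 (adjusted p = 0.0243) and Tiparp at -0.11 (adjusted p = 0.752). Cyp1b1 was at 0 and 0.266 CPM at 0 h and at 3.96 and 2.83 CPM at 24 h there, again with too few reads at 0 h to give a fold change.

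Among the genes of the H3K4 methyltransferase complexes themselves more fell than rose. Of 21 COMPASS subunit genes tested, 10 fell, 2 rose and 9 did not pass, against 17.0% and 15.9% of all tested genes, with a median of -0.45. Among the catalytic subunits, Kmt2d, the main H3K4me1 enzyme of enhancers, was at 70.6, 70.0 and 68.9 CPM at 0 h and at 23.2, 22.4 and 14.2 CPM at 24 h, a log2 fold change of -1.81 ± 0.22 (SE, adjusted p = 5.31e-09). Setd1b (ENSMUSG00000038384, chr5:123142193-123168629, plus strand), an H3K4me3 enzyme, was at 279, 310 and 294 CPM at 0 h and at 130, 125 and 120 CPM at 24 h, a log2 fold change of -1.24 ± 0.13 (adjusted p = 2.32e-11). Both genes had separate groups with little spread. Kmt2b, the enzyme of bivalent promoters, went from 41.6 ± 9.86 to 16.3 ± 10.7 CPM (SD, n = 3), with 6.81, 27.9 and 14.2 CPM at 24 h. Kmt2a and Kmt2c, at -0.75 and -0.81, passed with wider spread, and neither passed without 0 h replicate 2, the highest library of both (-0.53 each).

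Of the 4 shared core subunits, Wdr5 and Dpy30 fell. Wdr5 fell by 0.53 ± 0.11 (SE) on the log2 scale, from 548 ± 66.2 to 380 ± 37.9 CPM (SD, n = 3). Dpy30 (ENSMUSG00000024067, chr17:74299474-74323944, minus strand), whose protein is the one removed, was at 158, 162 and 176 CPM at 0 h and at 117, 90.6 and 74.2 CPM at 24 h, a log2 fold change of -0.82 ± 0.18 (adjusted p = 0.000342). Its mRNA was thus lower with separate groups, but far from absent. Rbbp5 and Ash2l did not pass, at -0.43 (adjusted p = 0.0542) and 0.20 (adjusted p = 0.14), and Rbbp5 passed under DESeq2 or with reads at more than 1 place subtracted. Of the subunits found in only some complexes, Hcfc1, a chromatin adaptor of SETD1 and MLL complexes, fell by 1.42 on the log2 scale, Ncoa6, a coactivator found with MLL3 and MLL4, by 0.94 and Bod1l, a partner of SETD1B, by 1.39. The Bod1l call was lost without 24 h replicate 2 (-1.06), and the Ncoa6 call without 0 h replicate 1 or 24 h replicate 3 (-0.79 each). The rises of Hcfc2 (1.14) and Bod1 (0.54) were each lost under several alternatives, Bod1 with reads at more than 1 place subtracted (0.38) or without 24 h replicate 3 (0.30), and Hcfc2 without 0 h replicate 1 (0.94), 0 h replicate 3 (1.02) or 24 h replicate 1 (0.92). The remaining subunits Psip1, Pagr1a, Men1, Kdm6a, Wdr82, Paxip1 and Cxxc1 lay between -0.45 and 0.17 and did not pass.

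Genes for removal of H3K4 methylation fell as well, 7 of 8 tested against 17.0% of all tested genes, with a median of -0.69, and 4 fell without 0 h replicate 1. Rcor2, the CoREST co-repressor partner of LSD1 in ES cells, was at 212, 224 and 190 CPM at 0 h and at 77.0, 64.2 and 86.8 CPM at 24 h, a log2 fold change of -1.45 ± 0.14 (SE, adjusted p = 6.16e-12). Kdm5b, the demethylase of H3K4me3, was at 929, 983 and 931 CPM at 0 h and at 545, 490 and 404 CPM at 24 h, a log2 fold change of -0.98 ± 0.10 (adjusted p = 9.38e-12). Both had separate groups. Kdm1a, which encodes LSD1, fell by 0.54 and Rcor1 by 0.94. Kdm5a and Kdm5c, at -0.44 and -0.48, passed by a narrow margin, and Kdm5a lost its call when any of 4 single libraries was left out (-0.42 to -0.35) and Kdm5c when any of 3 was (-0.45 to -0.34). Riox1, at -0.69, lost its call without 0 h replicate 1 (-0.41), and Kdm1b, at -0.69, did not pass.

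In other chromatin and transcription lists more members fell than rose. Among 28 Polycomb genes, 11 fell and 2 rose, against 17.0% and 15.9% of all tested genes, with a median of -0.38. Beside Jarid2, the falls included Cbx2, a chromodomain subunit of PRC1, from 24.3 ± 5.04 to 6.67 ± 2.17 CPM, and Bcor, of a variant PRC1, from 26.2 ± 6.63 to 10.2 ± 1.24 CPM (SD, n = 3). The core subunits of PRC2 differed among themselves: Suz12 fell by 0.42 on the log2 scale, with 34.4% of its reads at more than 1 place, and Ezh2 and Eed were at 0.20 and 0.28 and did not pass. Eed passed as higher with a minimum mean of 50 reads (0.31) and without 0 h replicate 2 (0.39). It also passed in a fit of the 0 h and 24 h libraries alone (0.29). Of 17 genes for DNA methylation and its removal, 9 fell and 1 rose, against the same shares, with a median of -0.49, and 5 fell without 24 h replicate 3. Tet1, an abundant 5-methylcytosine oxidase of ES cells, was at 601, 615 and 584 CPM at 0 h and at 358, 336 and 369 CPM at 24 h, and Tet2 fell from 193 ± 33.5 to 99.5 ± 8.72 CPM. Uhrf1, the partner of the maintenance methyltransferase, fell by 0.99 on the log2 scale, with 36.0% of its reads at more than 1 place.

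Of 37 genes for RNA polymerase II pausing, elongation and the Integrator, 13 fell and 4 rose, against 17.0% and 15.9% of all tested genes, with a median of -0.29. Polr2a (ENSMUSG00000005198, chr11:69733997-69758637, minus strand), the largest subunit of RNA polymerase II, was at 355, 370 and 470 CPM at 0 h and at 150, 143 and 163 CPM at 24 h, a log2 fold change of -1.39 ± 0.12 (SE, adjusted p = 8.95e-14). Its lowest 0 h library was more than 2 times its highest 24 h library. Hexim1, an inhibitor of P-TEFb, fell by 1.24 on the log2 scale, as did Ints2 of the Integrator. The 4 members that rose did so by 0.40 to 0.67.

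Pluripotency genes divided. Of 28 naive pluripotency genes with at least 10 reads at both times, 13 fell and 4 rose, against 17.9% and 16.3% of all such genes, with a median of -0.20. The core factors did not pass: Pou5f1 was at 1004, 843 and 942 CPM at 0 h and at 896, 1208 and 1080 CPM at 24 h, and Sox2 and Nanog had log2 fold changes of 0.21 (adjusted p = 0.0626) and -0.01 (adjusted p = 0.933). Nearly all reads of Pou5f1 (97.9%) mapped to more than 1 place, and the log2 fold change was 0.19, or -0.59 in the few that did not. Sox2, whose 24 h values lay just above those at 0 h, passed under several alternatives (0.21 to 0.27). Klf4 (ENSMUSG00000003032, chr4:55527143-55532466, minus strand) was at 557, 494 and 522 CPM at 0 h and at 231, 208 and 170 CPM at 24 h, a log2 fold change of -1.37 ± 0.12 (SE, adjusted p = 1.5e-13). Klf5 went from 1469 ± 66.8 to 629 ± 58.7 CPM (SD, n = 3), Utf1 from 752 ± 83.4 to 310 ± 14 CPM, and Esrrb fell by 0.82 on the log2 scale. Prdm14, a repressor of primed and somatic programmes, was counted with 57 reads in the 3 libraries at 0 h and with 1 read at 24 h, a ratio of 52.6 with a 95% counting interval of 9.08 to 2115. The members that rose included Tdgf1, the Nodal co-receptor, at 0.89, Nr5a2, an orphan nuclear receptor, at 0.86 and Fgf4, the main FGF of these cells, at 0.57.

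Genes of the formative and primed states also fell, 9 of the 14 with at least 10 reads at both times against 1 that rose, where 17.9% and 16.3% of all such genes did, and the median was -0.71. Tcf15, a factor of cells leaving the naive state, was at 141, 117 and 130 CPM at 0 h and at 32.1, 33.3 and 40.7 CPM at 24 h, a log2 fold change of -1.86 ± 0.19 (SE, adjusted p = 1.69e-11). Pou3f1 went from 22.6 ± 0.668 to 7.32 ± 1.23 CPM (SD, n = 3) and Dnmt3b fell by 0.73 on the log2 scale. Otx2, the central factor of the formative state, did not pass, at 0.22. Lef1, a nuclear effector of Wnt signals, had few reads at 0 h, and was at 1.00, 0 and 2.96 CPM at 0 h and at 4.81, 10.4 and 13 CPM at 24 h. Some lineage genes with low counts at 0 h also fell. Eomes, a mesendoderm factor, was at 23.5, 21.1 and 16.7 CPM at 0 h and at 2.40, 4.48 and 5.03 CPM at 24 h, and Sox1, an early neural factor, went from 41.3 ± 2.85 to 11.4 ± 2.17 CPM. Both had separate groups. In the lineage lists, few members had enough reads to be tested: 2 of the 3 primitive endoderm genes with at least 10 reads in both groups fell, 2 of 6 neural genes fell and 1 rose, 1 of 3 such trophectoderm genes fell, both genes left of the fibroblast list fell, 2 of 8 germline genes fell, and the 1 gene tested of the two-cell-like list did not pass. These counts are small, and 17.0% of all tested genes fell and 15.9% rose. None of the 3 mesoderm genes tested had 10 reads in both groups, and no count is read from them. Kdr, a receptor of mesoderm precursors, had 60 reads at 0 h and 2 at 24 h, a ratio of 27.7 with a counting interval of 7.34 to 234, and its 3 libraries at 0 h ranged from 1.11 to 18.0 CPM. Among extracellular matrix genes of primitive endoderm, Col4a1 went from 15.8 ± 4.24 to 4.18 ± 2.59 CPM. Dazl and Tex19.1, germline genes expressed in ES cells, went from 23.5 ± 4.09 to 5.23 ± 4.73 CPM and from 212 ± 31.9 to 94.5 ± 8.49 CPM. Map2, a neuronal microtubule protein, went the other way, from 4.54 ± 2.08 to 17.7 ± 4.27 CPM.

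Genes for making ribosomes and genes for their protein parts moved apart. Of 99 ribosome biogenesis factors tested, 42 fell and 6 rose, against 17.0% and 15.9% of all tested genes, with a median of -0.35. Tcof1, the nucleolar factor treacle of RNA polymerase I transcription, was at 519, 536 and 512 CPM at 0 h and at 241, 197 and 168 CPM at 24 h, a log2 fold change of -1.37 ± 0.12 (SE, adjusted p = 1.03e-13). Utp20, of the small subunit processome, went from 78.8 ± 6.80 to 33.5 ± 9.56 CPM (SD, n = 3), and both genes had separate groups. Of 76 cytosolic ribosomal protein genes, 53 rose and 3 fell, against 15.9% and 17.0%, with a median of 0.37. Rpl22 (ENSMUSG00000028936, chr4:152325742-152334071, plus strand) was at 1017, 1035 and 816 CPM at 0 h and at 1612, 1932 and 1956 CPM at 24 h, a log2 fold change of 0.94 ± 0.09 (adjusted p = 1.57e-11), and Rpl26 rose from 889 ± 118 to 1515 ± 99.6 CPM. Most rises of this list were smaller than 2-fold, and 1 member passed that size. Ribosomal protein genes have many processed pseudogenes, and when reads at more than 1 place were subtracted, 29 of 71 members rose.

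Many nuclear genes for mitochondrial proteins rose. Of 75 respiratory chain subunits, 49 rose and 2 fell, against 15.9% and 17.0% of all tested genes, with a median of 0.53, and 46 of 72 rose with reads at more than 1 place subtracted. Ndufb9 (ENSMUSG00000022354, chr15:58933756-58939488, plus strand), a complex I subunit without such reads, was at 283, 307 and 293 CPM at 0 h and at 469, 669 and 624 CPM at 24 h, a log2 fold change of 0.99 ± 0.12 (SE, adjusted p = 1.38e-09). Ndufb2 rose from 34.4 ± 7.12 to 84.4 ± 16.2 CPM (SD, n = 3). Cox7a2l, which joins respiratory complexes, rose from 230 ± 4.93 to 628 ± 51.5 CPM, with 71.2% of its reads at more than 1 place. Of 72 mitochondrial ribosomal protein genes, 33 rose and none fell in edgeR's test, against the same shares, with a median of 0.44, and 31 of 68 rose under the subtraction. Mrps17 rose from 75.2 ± 1.65 to 169 ± 31.7 CPM and Mrpl32 from 64.5 ± 4.61 to 141 ± 9.53 CPM. Among 35 proteasome subunits, 17 rose and 2 fell, against the same shares, with a median of 0.28. Psma7 rose from 212 ± 4.17 to 379 ± 31.5 CPM and Psmd10 from 35.5 ± 5.54 to 79.3 ± 7.65 CPM.

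Lysosome and autophagy genes were another group in which no member fell in edgeR's test: 14 of 29 rose, 7 of them more than 2-fold, against 15.9% and 6.16% of all tested genes, with a median of 0.55. Npc2 (ENSMUSG00000021242, chr12:84754562-84773152, minus strand), a carrier of cholesterol in the lysosome, was at 181, 152 and 162 CPM at 0 h and at 459, 480 and 572 CPM at 24 h, a log2 fold change of 1.61 ± 0.12 (SE, adjusted p = 1.19e-15). Hexa, a subunit of hexosaminidase, was at 25, 26.3 and 31.5 CPM at 0 h and at 95.4, 84.1 and 92.2 CPM at 24 h, a log2 fold change of 1.71 ± 0.23 (adjusted p = 2.97e-08). Both had separate groups and nearly no reads at more than 1 place. Neu1, the lysosomal sialidase, rose from 6.44 ± 1.83 to 30.4 ± 7.70 CPM (SD, n = 3), and Lamp2, a membrane protein of the lysosome, from 38.0 ± 4.97 to 105 ± 26.6 CPM. The protease cathepsin D, encoded by Ctsd, rose by 1.15 on the log2 scale. The autophagy receptor gene Sqstm1 and Tfeb, which encodes a regulator of lysosomal genes, had log2 fold changes of -0.34 and 0.47 and did not pass. Sqstm1 passed as lower with the replicate number as a block (-0.34), without 0 h replicate 1 (-0.40) or without 24 h replicate 3 (-0.46).

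**Figure D3:**
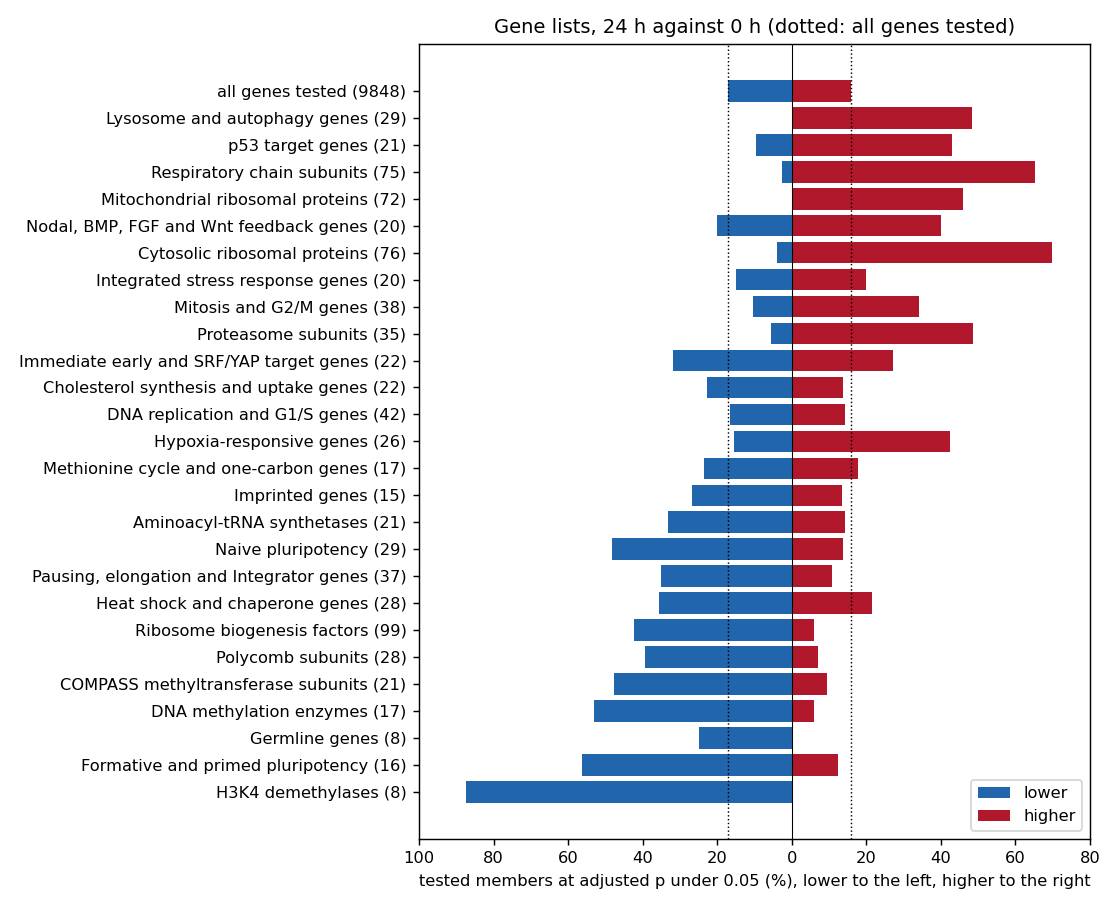
The plot of gene lists gives, for each list with at least 8 tested members (number in brackets), the percentage of tested members that were lower (blue, to the left) or higher (red, to the right) at an adjusted p under 0.05, with dotted lines at the 17.0% and 15.9% of all tested genes. Respiratory chain, cytosolic and mitochondrial ribosomal protein, lysosome and proteasome genes reach well past the line on the higher side, and H3K4 demethylases, formative pluripotency, DNA methylation and COMPASS genes do so on the lower side.

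Of 18 genes of the p53 list with at least 10 reads at both times, 8 rose and 2 fell, against 16.3% and 17.9% of all such genes, with a median of 0.55. Trp53 itself was one of the 2 that fell, at 194, 151 and 194 CPM at 0 h and at 101, 61.2 and 70.4 CPM at 24 h, a log2 fold change of -1.20 ± 0.16 (SE, adjusted p = 2.71e-08). Ccng1, a p53 target encoding cyclin G1, was at 124, 168 and 167 CPM at 0 h and at 326, 363 and 363 CPM at 24 h, a log2 fold change of 1.19 ± 0.13 (adjusted p = 1.37e-10). In both genes the groups were separate. Mdm2, the ubiquitin ligase of p53, rose by 0.66 and Trp53inp1 by 0.94, whereas Cdkn1a, at 0.24, did not pass (adjusted p = 0.187). Heat shock genes were lower in 10 and higher in 6 of 28 cases, against 17.0% and 15.9% of all tested genes, with a median of -0.30. The cytosolic chaperone gene Hsph1 fell from 456 ± 33.8 to 167 ± 20.7 CPM (SD, n = 3), whereas Hspa5, the chaperone of the endoplasmic reticulum, rose by 0.68 on the log2 scale. Hspd1, the mitochondrial chaperonin, fell from 1694 ± 153 to 756 ± 22.6 CPM with 76.3% of its reads at more than 1 place. Of 20 integrated stress response genes, 3 fell and 4 rose, shares near the 17.0% and 15.9% of all tested genes. Slc7a3, a carrier of cationic amino acids, fell from 227 ± 56.0 to 88.7 ± 10.8 CPM, and Psat1, of serine synthesis, rose from 394 ± 7.41 to 591 ± 38.4 CPM. Atf4, the central factor of that response, was at 0.24 and did not pass.

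In the list of immediate early genes and targets of serum response factor (SRF) and YAP, 6 of the 20 members with at least 10 reads at both times rose and 6 fell, against 16.3% and 17.9% of all such genes, with a median of 0.17. Beside Egr1, the immediate early gene Jun went from 6.53 ± 1.54 to 23.1 ± 6.43 CPM (SD, n = 3) and Ccn2, a YAP target, from 31.3 ± 8.06 to 77.4 ± 13 CPM. Actb, a cytoplasmic actin, fell by 0.59 on the log2 scale. Zyx, the focal adhesion protein zyxin, went from 14.6 ± 8.83 to 3.58 ± 1.07 CPM, with 4.44 CPM in 1 of the 0 h libraries, so that its groups overlapped. Of 15 such feedback genes of Nodal, BMP, FGF and Wnt signalling, 6 rose and 3 fell, with a median of 0.43. The FGF-ERK feedback genes were split, with Etv4 falling from 78.8 ± 11.4 to 30.6 ± 4.91 CPM and Dusp6 rising by 0.93 on the log2 scale. Nodal itself rose by 1.29 and Id1, a BMP target, by 0.65.

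The shares called in a pair of metabolic lists were near those of all tested genes. Among 22 cholesterol genes, 5 fell and 3 rose, with a median of 0.07, and of 17 methionine cycle and one-carbon genes, 4 fell and 3 rose, against 17.0% and 15.9% of all tested genes. Acat2 and Ebp rose from 105 ± 7.55 to 188 ± 12.9 CPM and from 29.2 ± 6.34 to 61.4 ± 8.45 CPM (SD, n = 3). Mat2a was the largest of the falls in the one-carbon list, and Srm, the spermidine synthase gene, went from 431 ± 38.0 to 257 ± 9.97 CPM. Of 21 aminoacyl-tRNA synthetase genes, 7 fell and 3 rose, against the same shares, and 4 fell without 0 h replicate 3 or without 24 h replicate 3.

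Among cell cycle genes, the D-type cyclin genes Ccnd2 and Ccnd3 of G1 fell, Ccnd2 from 94.2 ± 1.33 to 24.1 ± 5.61 CPM and Ccnd3 from 515 ± 40.0 to 273 ± 22.1 CPM (SD, n = 3). The G1/S and replication list as a whole had 7 lower and 6 higher members of 42, with a median of 0.03, about the 17.0% and 15.9% of all tested genes. In the mitosis and G2/M list, 13 of 38 rose and 4 fell, against the same shares, with a median of 0.29. Hmmr, a microtubule-associated protein of the spindle, was at 73.6, 67.0 and 83.7 CPM at 0 h and at 148, 128 and 142 CPM at 24 h, a log2 fold change of 0.90 ± 0.17 (SE, adjusted p = 4.76e-05), and its groups were separate. Ect2, which acts in cytokinesis, rose by 0.90 and Ccnb1, the mitotic cyclin, by 0.71 on the log2 scale. Of 12 imprinted genes with at least 10 reads at both times, 3 fell and 2 rose, against 17.9% and 16.3% of all such genes. Peg10 went from 193 ± 21.0 to 54.3 ± 15.4 CPM, Phlda2 from 467 ± 83.1 to 182 ± 16.0 CPM and Cdkn1c, an inhibitor of cyclin-dependent kinases, from 23.1 ± 5.91 to 56.8 ± 4.34 CPM.

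The time at which genes left their starting level was read from the 2 h and 8 h libraries of the same line. The 8 h group was uneven, with 5.51% to 13.03% T>C reads and 37.0% to 43.4% of all reads within intervals, and the part this plays was not tested. In the contrast of 24 h with 8 h from the same fit, 1679 genes (17.0%) had fallen and 1573 (16.0%) had risen at an adjusted p under 0.05 in edgeR's test, and without single 8 h or 24 h libraries 1392 to 1605 had fallen and 1285 to 1459 had risen. The mean of Jarid2 at 0 h, 2 h, 8 h and 24 h was 2465, 2121, 1347 and 833 CPM, and the step from 8 h to 24 h was -0.69 on the log2 scale (adjusted p = 1.72e-09). Klf5 followed the same order, with 1469, 1163, 926 and 629 CPM. Other genes were lower at 24 h but not at 8 h. Polr2a was at 398, 408, 480 and 152 CPM at the 4 times and fell by 1.66 between 8 h and 24 h (adjusted p = 3.99e-16). Ncl (3070, 2951, 3009 and 1378 CPM) and Kmt2d (69.8, 69.7, 69.4 and 20.0 CPM) likewise stood near the 0 h level at 8 h. Mat2a and Tex19.1 were lowest at 8 h: Mat2a was at 3159, 2683, 863 and 1321 CPM and rose by 0.61 from 8 h to 24 h (adjusted p = 4.3e-08), and Tex19.1 was at 212, 137, 45.5 and 94.5 CPM and rose by 1.05 (adjusted p = 1.36e-06).

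Among the genes that rose, Bnip3 was at 48.7, 65.4, 208 and 413 CPM at the 4 times, and its step from 8 h to 24 h was 0.99 (adjusted p = 2.1e-08). Ndrg1 was at 12.8, 9.32, 41.9 and 65.5 CPM, and its last step, 0.65, did not pass (adjusted p = 0.0649). Neu1 was already at 25.7 CPM at 8 h, against 30.4 CPM at 24 h (log2 difference 0.25, adjusted p = 0.61). Of the 12 highest genes, 8 rose more after 8 h than before, as did 340 of the 607 genes that rose more than 2-fold. The same count was not made over all tested genes, and the later interval is the longer one. These genes were also chosen by their 24 h change, and the 24 h level enters only the later step. Fcho2 and Narf rose more before 8 h (1.23 each) than after it (0.87 and 0.78). Egr1 was at 5.67, 4.86, 5.93 and 47.1 CPM, Npc2 at 165, 163, 195 and 504 CPM, Hspb8 at 21.0, 23.2, 32.5 and 100 CPM and Rpl22 at 956, 972, 882 and 1833 CPM. For Egr1, Npc2, Hspb8 and Rpl22 the differences of 24 h from 8 h were 2.98, 1.37, 1.62 and 1.06 on the log2 scale, and each passed. Of all tested genes, 17.0% were lower and 16.0% were higher at 24 h than at 8 h. Of the cytosolic ribosomal protein genes, 61 of 76 were higher at 24 h than at 8 h and none was lower in edgeR's test, as were 55 of 75 respiratory chain genes and 17 of 29 lysosome genes, the last with 1 member lower. Among ribosome biogenesis factors, 33 of 99 were lower at 24 h than at 8 h and 12 were higher, against the same shares.

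**Figure D4:**
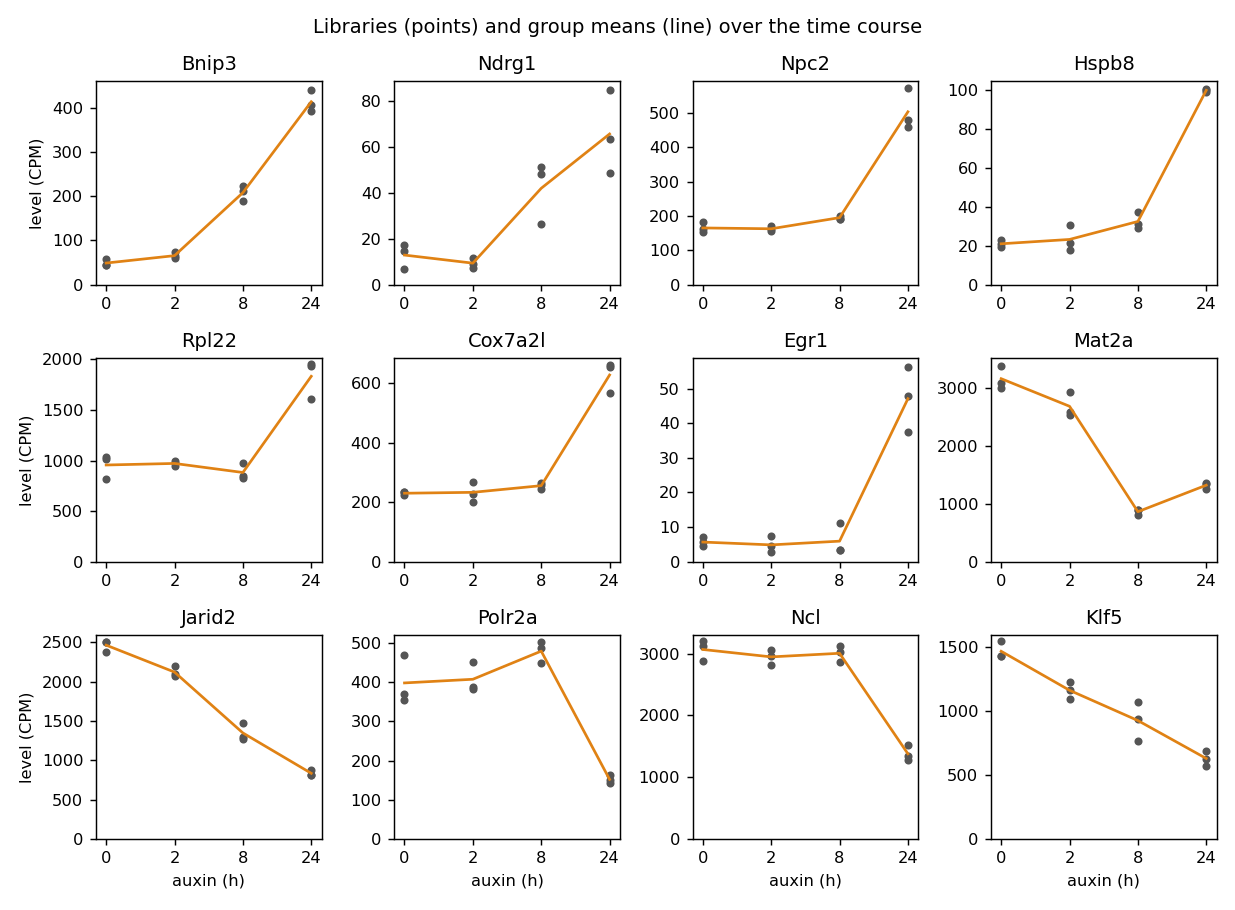
The plot of levels over time gives CPM (y axis, linear from 0) for each library at 0 h, 2 h, 8 h and 24 h of auxin (x axis, evenly spaced) in 12 panels, 1 gene a panel, with points for libraries and a line through the means of 3. Bnip3 and Ndrg1 stand higher at 8 h than at 0 h, Mat2a is lowest at 8 h, and Polr2a, Ncl, Npc2, Hspb8, Egr1 and Rpl22 move most between 8 h and 24 h.

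The T>C reads of the same libraries, which are enriched for RNA made in the last 60 min, are part of the total reads, and the 2 are set side by side with no test between them. They held 1.24 to 1.32 conversions each on average, so that most carried a single conversion, which a sequencing error or a variant can also give, whereas reads with a single conversion were left out of the nascent counts in the methods of the study. For Polr2a the log2 fold change was -2.16 in T>C reads (adjusted p = 0.00016) and -1.39 in all reads. For Jarid2 it was -1.42 (adjusted p = 0.0013) and -1.56, and for Klf4 -1.55 (adjusted p = 0.0013) and -1.37. For Bnip3 it was 1.03 in T>C reads (adjusted p = 0.17) and 3.08 in all reads. The T>C counts are smaller, and a missed threshold there does not show that the synthesis of a gene stayed the same. The cytosolic ribosomal protein, mitochondrial ribosomal protein, respiratory chain and proteasome lists, each with many rises in all reads, had no member that passed in T>C reads in edgeR's test, of 71, 61, 66 and 33 tested. Of all 6317 genes tested in T>C reads, 172 (2.72%) passed as lower and 52 (0.823%) as higher, so that a count of 0 is near the background. The median T>C log2 fold changes of these lists were 0.31, 0.23, 0.35 and 0.21, against -0.14 for all genes.

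The change at 24 h was next compared with that of RBBP5FKBP cells, in which another shared core subunit was removed with another ligand. In that line 420 of 9676 genes (4.34%) fell and 290 (3.00%) rose from its own 0 h to 24 h. Of the genes that fell more than 2-fold in DPY30mAID cells, 659 were tested in RBBP5FKBP cells, and 469 of them (71.2%) had a lower mean there, against 47.2% of the genes without a 2-fold change. Of the genes that rose more than 2-fold, 27.5% were lower there. The median log2 fold changes in RBBP5FKBP cells were -0.30 and 0.38 for these 2 classes and 0.03 for the other genes, much smaller than the 2-fold that defined the classes. In RBBP5FKBP cells 84 of the 659 passed as lower and 4 as higher, and of 542 tested genes of the higher class 61 passed as higher and 4 as lower.

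The test of the difference itself, the 24 h change in DPY30mAID minus that in RBBP5FKBP, called 686 of 10196 genes (6.73%) as lower and 604 (5.92%) as higher in DPY30mAID. Egr1 rose in DPY30mAID and fell in RBBP5FKBP (-1.99, adjusted p = 0.000354), a difference of 5.06 ± 0.53 (SE, adjusted p = 7.66e-09). The starting levels were far apart, since Egr1 was at 65.1 ± 12.2 CPM (SD, n = 3) at 0 h in RBBP5FKBP and at 5.67 CPM in DPY30mAID. Jarid2 fell in both lines, by 1.56 and 0.53 on the log2 scale, and the difference of -1.03 passed (adjusted p = 1.12e-06). Mat2a fell by 1.26 and 1.47, with a difference of 0.22 ± 0.14 that did not pass (adjusted p = 0.324), and Ndrg1 rose by 2.37 and 3.44, with a difference of -1.07 ± 0.60 (adjusted p = 0.254). Bnip3 rose in both, by 3.08 and 1.29, and the difference of 1.80 passed (adjusted p = 2.23e-06). Trim28 and Ncl had log2 fold changes of 0.25 and 0.17 in RBBP5FKBP cells, neither of which passed, and each differed between the lines. Of the COMPASS subunit genes, 8 of 21 stood lower in DPY30mAID by the difference, among them Hcfc1, Kmt2d and Setd1b, and none stood higher in edgeR's test. So did 21 of 99 ribosome biogenesis factors, with 4 in the other direction, and 11 of 29 naive pluripotency genes, Klf4 among them, with 5 in the other direction. On the higher side were 25 of 75 respiratory chain genes, 19 of 76 cytosolic and 14 of 72 mitochondrial ribosomal protein genes, with none on the lower side in edgeR's test. Cholesterol genes were a contrast: 13 of 22 fell in RBBP5FKBP cells, against 4.34% of all genes tested there. In the test of the difference 11 of 22 stood higher in DPY30mAID than in RBBP5FKBP, against 5.92% of all genes.

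**Figure D5:**
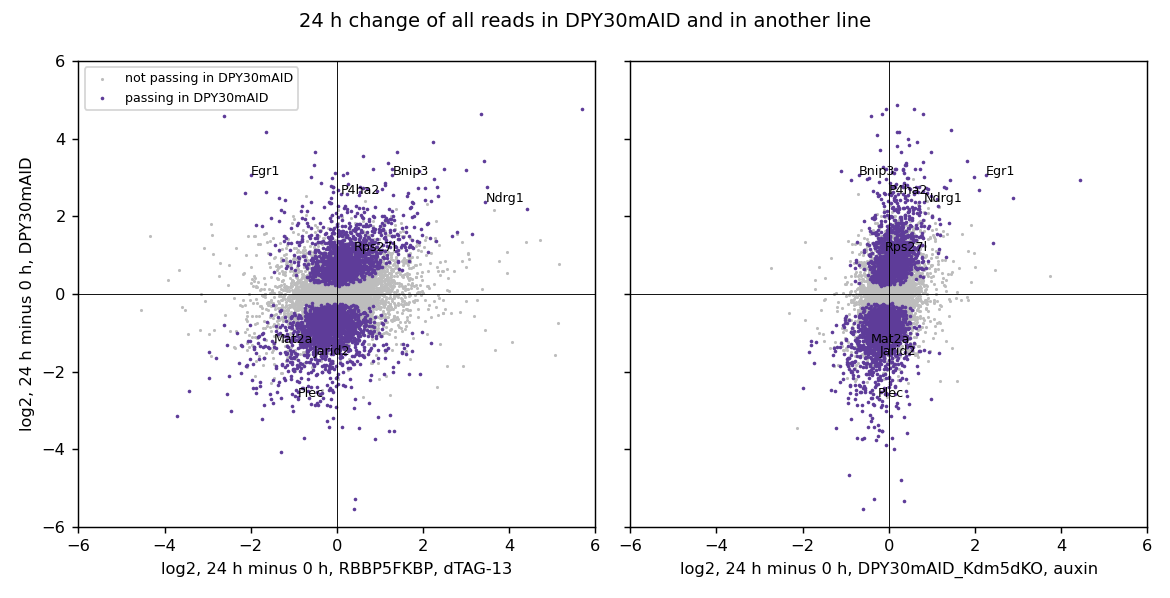
The plot of 2 lines sets the log2 fold change at 24 h in DPY30mAID cells (y axis) against that in RBBP5FKBP cells or in DPY30mAID_Kdm5dKO cells (x axis, 1 panel each), 1 point a gene tested in both, with purple for genes at an adjusted p under 0.05 in DPY30mAID and grey for the others. Purple points above 0 lean to the right and those below 0 to the left, most of them nearer to 0 on the x axis than on the y axis, and 7 and 6 genes lie outside the axes.

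In the Kdm5dKO cells, with the same degron and ligand but 2 libraries a group and 6606605 to 7792404 reads each, 686 of 11394 genes (6.02%) fell and 587 (5.15%) rose from 0 h to 24 h. Of the genes that fell more than 2-fold in DPY30mAID cells, 75% had a lower mean there, and of those that rose, 23.8% did, against 48.4% of the other genes. The medians were -0.22 and 0.22 for the 2 classes and 0.01 for the others. The difference of DPY30mAID from Kdm5dKO was called as lower at 932 of 11483 genes (8.12%) and as higher at 961 (8.37%). The counts fell by more than 1.5 times without 1 of 3 Kdm5dKO libraries, to 604 and 638 without 0 h replicate 1, 589 and 617 without 24 h replicate 1 and 580 and 582 without 24 h replicate 2. Each of these fits leaves 1 library in a group, which is then assumed to vary like the other groups. Egr1 rose in both lines, by 3.06 and 2.25, with a difference of 0.84 ± 0.45 (SE, adjusted p = 0.215). Bnip3 rose in DPY30mAID and fell in Kdm5dKO cells (-0.70, adjusted p = 0.000446), a difference of 3.79 ± 0.19. Of the 26 hypoxia genes, 12 fell and 2 rose in Kdm5dKO cells, and 13 stood higher in DPY30mAID in the test of the difference, with 2 lower. Of the respiratory chain genes 44 of 75, and of the cytosolic ribosomal protein genes 44 of 76, stood higher in DPY30mAID by the difference from Kdm5dKO cells, with none in the other direction in edgeR's test. Reads mapped to more than 1 place were 32.7% to 34.3% of counted reads in these Kdm5dKO libraries. In the DPY30mAID libraries at 0 h and 24 h they were 22.8% to 25.9%, and the part this plays was not tested. Polr2a fell by 1.39 and 0.26 in the 2 lines, a difference of -1.11 (adjusted p = 1.5e-06), and Plec, which fell by 2.65 in DPY30mAID, was at -0.26 in Kdm5dKO cells and did not pass there (adjusted p = 0.114), with a difference of -2.37 (adjusted p = 2.35e-09). In the p53 list, 9 of 21 members rose and 2 fell in Kdm5dKO cells.

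Properties that the fold changes did not use were set beside the classes. The share of T>C reads at 0 h in the RBBP5FKBP libraries, a measure from other libraries that is enriched for newly made RNA, had a median of 12.6% over 577 genes of the lower class, 8.33% over 393 genes of the higher class and 10.1% over 6862 other genes, among genes with at least 60 reads. Several lists with many rises had low shares: the median was 2.99% for cytosolic ribosomal proteins, 3.53% for the respiratory chain, 4.89% for the proteasome, 5.32% for lysosome genes and 6.77% for mitochondrial ribosomal proteins. It was 10.4% for the hypoxia list, in which 11 of 26 members rose. It was 13.1% for COMPASS subunits, 16.2% for Polycomb genes, 10.8% for pausing and Integrator genes and 10.5% for ribosome biogenesis factors, against 10.2% for all tested genes. Ribosome biogenesis factors, of which 42 of 99 fell, thus lay near the median of all genes. The counted intervals of the lower class had a median summed length of 1635 bases, those of the higher class 1367 and those of other genes 1578, and the gene spans had medians of 26500, 23300 and 24830 bases. These are descriptions of classes chosen by their fold change, and the part that labelling share or length plays in the changes was not tested.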

How the data were processed

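SLAM-seq libraries are QuantSeq 3′-end libraries of RNA from cells given 4SU, in which alkylated 4SU is read as T>C. Per the file headers and the study's methods, the authors aligned reads with SlamDunk 0.3.4 to GRCm38 and deposited, for each of 46420 3′ intervals, the read counts, the T>C read counts and the multimapped read counts, with no molecular identifiers. The authors also deposited CPM values relative to the whole library, which served here to obtain the share of reads within intervals. Intervals were summed to 20177 genes. Genes whose mean count reached 10 in any group were tested with edgeR 4.0.16 (R 4.3.3) by the quasi-likelihood F test on all 12 DPY30mAID libraries (0 h, 2 h, 8 h and 24 h), with TMM normalization and Benjamini-Hochberg adjustment over all genes tested, and a call is an adjusted p under 0.05. Each SE is the log2 fold change over the root of F. The other lines were fitted alone for their own changes and together with DPY30mAID for the differences. DESeq2 1.42.0 served as an alternative. Figures were drawn in Python 3.11.15.

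Genes were named by rule: COMPASS and demethylase genes, the 12 lowest and 12 highest log2 fold changes past 2-fold with separate groups, at least 50 reads and at most 20% multimapped reads, the 5 most counted in each direction, up to 4 called members of each of 33 lists, and those that differed most between lines. Further list members were added to the text once their values had been read. The members and lists were chosen with earlier results of these data known. On simulated counts of 9544 genes for 24 h against 0 h, 51% of genes changed by 1 and 84% of those changed by 2 on the log2 scale were recovered, and 0.0856% of unchanged genes were called. The simulation changed 100 genes of each size, far fewer than were called in the data, so these shares need not hold there. Replicate libraries differed beyond sampling noise (chi-square per degree of freedom 4.56 to 5.94). The study calls its replicates biological, but whether they were separate cultures is not stated in the labels, so p-values measure the spread between these libraries. Counting intervals use the exact conditional binomial method and cover counting error only. Gene positions are those of GENCODE vM21. The Quant-seq libraries and other conditions were not used, and a few genes are not reported here.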

Additional observations from a re-analysis of the deposited data

Results flagged for a closer look

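The change at 24 h was tested against that of the other lines, and genes that differed are listed for that reason. The difference from RBBP5FKBP was lower at 686 genes and higher at 604, and that from DPY30mAID_Kdm5dKO was lower at 932 and higher at 961. The causes of these differences were not tested, and line, ligand and library series cannot be told apart in the first of them. In the second, the Kdm5dKO libraries also stood apart in depth and multimapped share, so genotype and library series cannot be told apart.

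Among the largest differences from RBBP5FKBP on the log2 scale were -11.84 for Kcnj3, -6.86 for Bbs1, -6.63 for En2, -5.92 for Arhgef15 and -5.88 for Paqr8, and 7.22 for Lrrc27, 6.75 for Pnck, 6.67 for Fut11 and 6.53 for Usp51. Those from Kdm5dKO were -8.83 for Tril, -6.74 for Kcnj3, -6.72 for Fgf15, -6.7 for D630039A03Rik and -5.91 for Arhgef15, and 7.72 for Trim40, 7.38 for Ephx1, 5.8 for Rhobtb1, 5.21 for Lrrc27 and 5.03 for Nudt16. These genes had few reads or none in 1 group, so that their fitted values depend on the prior count and are no bounds. Within DPY30mAID, counted against a floor of 3 reads over the group, Kcnj3 was at least 12.6-fold lower at 24 h, Tril at least 20.3-fold, Fgf15 at least 13.5-fold, D630039A03Rik at least 9.24-fold and Arhgef15 at least 5.54-fold, and Ephx1 was at least 17.0-fold higher, Trim40 at least 13.4-fold and Rhobtb1 at least 3.25-fold. Lrrc27 went from 1 to 30 reads and Nudt16 from 1 to 34. The floors pool the reads of a group and leave out the spread between libraries. Genes with 0 reads in a group passed the filter on low counts only through other groups. Rhobtb1 had 9 reads at 24 h and lost its call without that filter or with the replicate number as a block. Its call was also lost when any single 0 h library, 24 h replicate 1 or 24 h replicate 3 was left out. Without 1 library each, the log2 fold changes of Bbs1, Fut11 and Usp51 at 24 h changed sign.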

How the results depend on the processing

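The counts of 1679 lower and 1570 higher genes stayed within 1.5 times under every alternative run: no TMM, DESeq2, filters on low counts, a fit of the 0 h and 24 h libraries alone, unadjusted p, and leaving out each library (1425 to 1596 lower, 1269 to 1440 higher). A mean of at least 50 reads gave 452 lower and 383 higher genes past 2-fold, because fewer genes were tested. Without adjustment of p, 1396 and 1290 genes differed from RBBP5FKBP (760 and 618 past 2-fold) and 1624 and 1730 from Kdm5dKO (699 and 712 past 2-fold). Leaving out 1 library gave 580 to 1056 lower and 582 to 1037 higher for the difference from Kdm5dKO, and 258 to 466 higher past 2-fold. The low ends came without Kdm5dKO 24 h replicate 2 (580, 582 and 258) and, past 2-fold, also without Kdm5dKO 0 h replicate 1 (258), and the high ends without DPY30mAID 24 h replicate 1. The cause was not tested. With multimapped reads subtracted, chosen after seeing the data, 29 cytosolic ribosomal protein genes rose, 1 COMPASS gene rose and 1 respiratory chain gene fell.

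Leaving out 1 library moved small list counts: COMPASS genes higher 1 to 2, H3K4 demethylases lower 4 to 6, formative genes higher 1 to 2, primitive endoderm higher 0 to 1, fibroblast list lower 1 to 2, aryl hydrocarbon receptor targets higher 2 to 4, one-carbon genes higher 1 to 3, pausing genes higher 2 to 5, Polycomb higher 1 to 3, DNA methylation lower 5 to 8 and higher 1 to 2, tRNA synthetases lower 4 to 7 and higher 1 to 3, lysosome lower 0 to 1, cytosolic ribosomal proteins lower 0 to 4, mitochondrial ribosomal proteins lower 0 to 1 and respiratory chain lower 1 to 2. Signs turned, at values near 0, in Kdm6a (-0.2788 to 0.0538), Men1 (-0.3079 to 0.0200), Paxip1 (-0.0052 to 0.2934), Wdr82 (-0.2266 to 0.1037), Bbs1 (-0.9296 to 0.0837), Fut11 (-1.2538 to 0.2015) and Usp51 (-0.0568 to 1.3148) when 1 library was left out. Nanog (-0.0440 to 0.0602 over left-out libraries) was at 0.0107 with a mean of at least 50 reads and at 0.0013 with multimapped reads subtracted, under which Pou5f1 was at -0.5858.

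The replicate number as a block gave 1648 lower and 1536 higher genes (679 and 586 past 2-fold). The numbers did not pair the libraries: deviations of same-numbered 0 h and 24 h libraries correlated at -0.0851, -0.145 and -0.187 over 2000 genes.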
